A study of Caenorhabditis elegans with 9 samples.

Results

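The genes described here are the numbered cuticle collagens of the nematode Caenorhabditis elegans, taken as every gene of the count table whose WormBase symbol is col- followed by a number. The rule found 158 members among 20389 genes, of which 155 were named through the gene identifiers of the deposited tables and 3 by their sequence name. Polyadenylated RNA of mixed embryos was sequenced from 3 strains with 3 libraries each. The wild-type strain was N2. DPY-27::GFP embryos (strain MK14, genotype hsp::dpy-27::gfp) carried a GFP-tagged copy of the condensin subunit DPY-27, and DPY-27(EQ)::GFP embryos (strain KB01, genotype hsp::dpy-27[EQ-TR]::gfp) carried the same construct with a glutamate-to-glutamine change in its ATPase. By the study's methods the tagged DPY-27 was inserted as a single copy on chromosome II under a heat-inducible promoter, and the endogenous dpy-27 gene was still present. The parents, those of wild type among them, received a heat shock (35 °C, 30 minutes) with a recovery of 2 hours before embryos were harvested, so no group lacks it. Below, the transgenic strains are called the DPY strain and the EQ strain. The labels do not say whether the 3 libraries of a strain came from separate cultures. The study's methods speak of biological replicates where they describe the sequencing of another strain, and if that does not hold here, p-values measure only a technical spread between libraries.

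Cuticle collagens are short secreted proteins with Gly-X-Y repeats that form triple helices and make up most of the worm's exoskeleton. The epidermis makes them, prolyl hydroxylases and disulfide isomerases modify them in the endoplasmic reticulum, and proteases trim them before they are cross-linked in the cuticle. The cuticle of the hatching larva is laid down in the last part of embryogenesis, and a new one is made before every moult by partly different collagens, so that individual members are known for larval, dauer or adult cuticles. Few of the numbered genes have a known individual function. Their levels in a mixed embryo collection are therefore best read beside the mix of stages in it.

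Depth and stage differed between libraries. Reads on genes ran from 17107945 to 23536013 in wild type, from 7062182 to 9582838 in the DPY strain and from 7573682 to 21281027 in the EQ strain. Read rows without a gene held 55.2% to 58.2% of wild-type reads and 12.6% to 21.2% of transgenic reads. The library names of all 3 wild-type libraries and of EQ replicate 3 carry the prefix LAS and the other 5 carry SEA, which leaves 1 transgenic library on the wild-type side. An embryo stage index was computed as the mean log2 CPM (counts scaled to the library total) of late markers (muscle, gut and neuron genes) minus that of maternal markers, with no collagen in either list, and 17 of 17 late and 23 of 24 maternal markers found were expressed. It was 1.41, 1.98 and 0.86 in wild-type replicates 1 to 3, 2.67, 3.84 and 1.90 in the DPY strain, and 3.17, 2.40 and 2.82 in the EQ strain, so that the EQ range lay inside the DPY range, and the only transgenic library inside the wild-type range was DPY replicate 3. The dpy-27 transcript, which the endogenous gene and the transgene share, was at 465, 472 and 484 CPM in wild type (474 ± 9.53, SD, n = 3), 802, 451 and 817 in the DPY strain (690 ± 207) and 591, 514 and 901 in the EQ strain (669 ± 205). The library labelled DPY replicate 2 was below all wild-type libraries, so this transcript does not bear out its label. The reason was not tested, and a low level of this transcript does not show that the label is wrong. Results that rest on this library are also given without it.

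Most of the family was detected in these embryos. With 10 or more counts in 3 or more libraries, 111 of 158 members were expressed, which is 70.3% of the family beside 65.8% of all genes. In every library 69 of 158 members reached 10 counts, beside 11105 of 20389 genes, so the share was larger over all genes. Of the expressed members, 6 reached it in wild-type libraries alone, which were sequenced more deeply than most transgenic ones. Wild-type replicate 1 stood apart, with 146 members at 10 or more counts beside 98 and 101 in the other wild-type libraries and 72 to 97 in the transgenic ones. It also had the most genes at 10 or more counts, 15551 beside 13147 and 13282 in wild type and 11435 to 13413 in the transgenic libraries. With all libraries thinned to 7062182 reads it no longer stood apart. It then had 87 members at 10 or more counts, beside 78 and 72 in wild type and 72 to 90 in the transgenic libraries. For genes it had 12146, beside 11788 and 11529 in wild type and 11435 to 12164 in the transgenic libraries. Without wild-type replicate 1, 97 members were expressed, and after the thinning 88 were. The matching shares over all genes were not counted for these, nor for the 6 members above. All 47 members below the limit had at most 24 counts in any library, and col-36, col-126 and col-127 had no count in any. Expressed members lay on all 6 chromosomes, with 31 of 41 on chromosome IV, 23 of 31 on V, 19 of 28 on X, 17 of 24 on II, 12 of 22 on I and 9 of 12 on III.

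Levels of genes were compared in the deposited TPM (transcript levels scaled to gene length and library total). The mean over the 9 libraries was 100 TPM or more in 23 members, 10 to 100 in 30, 1 to 10 in 44 and under 1 in 61. A few members held most of the signal, since the 12 with the highest mean TPM made up 68.7% to 74.7% of the family's TPM in each library. Col-74 was the highest member in all 9 libraries. It was at 1133, 1193 and 1308 TPM in wild type, at 2302, 2650 and 1617 in the DPY strain and at 2316, 1590 and 2441 in the EQ strain. Col-165 came next, at 1039, 1093 and 1171 TPM in wild type, 2049, 2344 and 1335 in the DPY strain and 2177, 1426 and 2332 in the EQ strain. Col-74 was above col-165 in each library, and the ranges of the 2 genes overlapped within every strain. After them in mean TPM came col-10 (968), col-107 (925), col-3 (874), col-117 (854), col-144 (758), col-125 (604), col-65 (567), col-14 (532), col-104 (455) and col-48 (442).

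The deposited TPM and the counts gave different levels for part of the family. TPM was rebuilt from the counts with the exonic lengths of the WBcel235 annotation, and the deposited value was divided by it. The ratio had a median of 0.79 over 12759 genes with a mean TPM of 1 or more, and 10.8% of these genes reached 1.5. Of 97 members with a mean TPM of 1 or more, 24 (24.7%) reached 1.5, 2 without any count among them. At any level, 13 members reached 5, with the same 2 counted. Col-117 was 121 times higher in the deposited TPM, col-3 was 44.4 times, col-66 was 18.6 times, col-94 was 14.1 times, col-170 was 12.7 times and col-144 was 7.34 times. Such members sat side by side in the genome. When members less than 10 kb apart are joined, 50 members form 21 runs, and 24 of these 50 had a ratio of 1.5 or more, beside 3 of the 108 members outside runs. Col-126 and col-127 are neighbours that had no counts and identical TPM in each library, from 0.235 to 4.49. Reads that fall equally well on near-identical copies are left out by a counter of unique reads and can be shared among the copies by an estimate of abundance, so the counts of these members and the split of their TPM are uncertain. Whether their sequences are near-identical was not tested here.

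**Figure D1:**
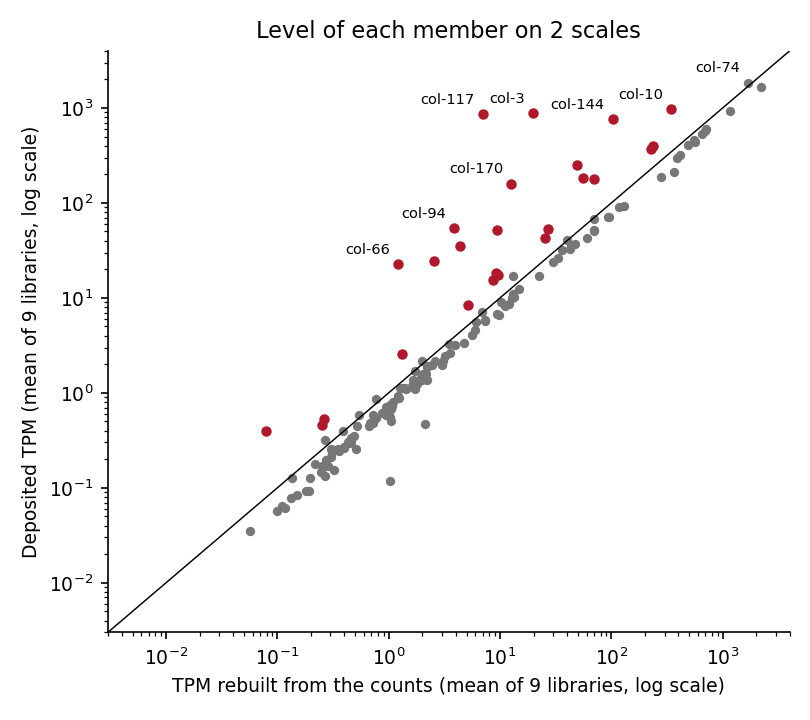
Mean level of each member over the 9 libraries, as TPM rebuilt from the counts (horizontal axis, log scale) and as deposited TPM (vertical axis, log scale); the line marks equal values and red points have a ratio of 1.5 or more, and the 3 members without counts are not drawn. Red points lie above the line, and col-117 lies 121 times and col-3 lies 44.4 times above it.

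The summed level of the family rose along the stage index within the transgenic libraries. In deposited TPM the 158 members summed to 8356, 8213 and 8548 in wild type, to 17609, 26598 and 10059 in the DPY strain and to 20715, 13009 and 19860 in the EQ strain, which is 0.821% to 0.855% of all TPM in wild type and 1.01% to 2.66% in the transgenic libraries. All 6 transgenic sums were above all wild-type sums. The 6 transgenic libraries had the same order by summed TPM as by stage index, from DPY replicate 3 (index 1.90) to the library labelled DPY replicate 2 (index 3.84). The 3 wild-type libraries differed little in summed TPM although their index ran from 0.86 to 1.98, and their order was the reverse of the index. Wild-type replicate 3, with the lowest index, was also the highest of wild type in CPM and in TPM rebuilt from the counts. At close index values, wild-type replicate 2 summed to 8213 TPM and DPY replicate 3 to 10059 TPM. EQ replicate 3, which shares the library name prefix of wild type, summed to 19860 TPM.

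The full separation of the strains was seen only in the deposited TPM. In CPM scaled by trimmed mean of M values (TMM) the family summed to 6694, 7215 and 7745 in wild type, 9075, 13359 and 6630 in the DPY strain and 11711, 7175 and 11077 in the EQ strain. On this scale DPY replicate 3 was below all wild-type libraries and EQ replicate 2 lay inside their range. In TPM rebuilt from the counts, the sums were 8842, 8960 and 9444 in wild type. They were 14228, 20410 and 8952 in the DPY strain and 16738, 10851 and 15841 in the EQ strain. DPY replicate 3 then lay inside the wild-type range and the other transgenic libraries lay above it. Members with a ratio of 1.5 or more held 25.1% to 28.3% of the family's deposited TPM in wild type and 32.4% to 43.6% in transgenic libraries. The mean sum of the DPY strain was 2.16 times that of wild type in deposited TPM and 1.34 times in CPM. That of the EQ strain was 2.13 and 1.38 times. The median gene was itself higher in deposited TPM, by 0.24 on the log2 scale in the DPY strain and 0.21 in the EQ strain over 13031 genes, beside 0.83 and 0.81 for the 97 members tested below. In these bulk samples, fewer embryos that make a collagen and less of its RNA per embryo cannot be told apart.

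**Figure D2:**
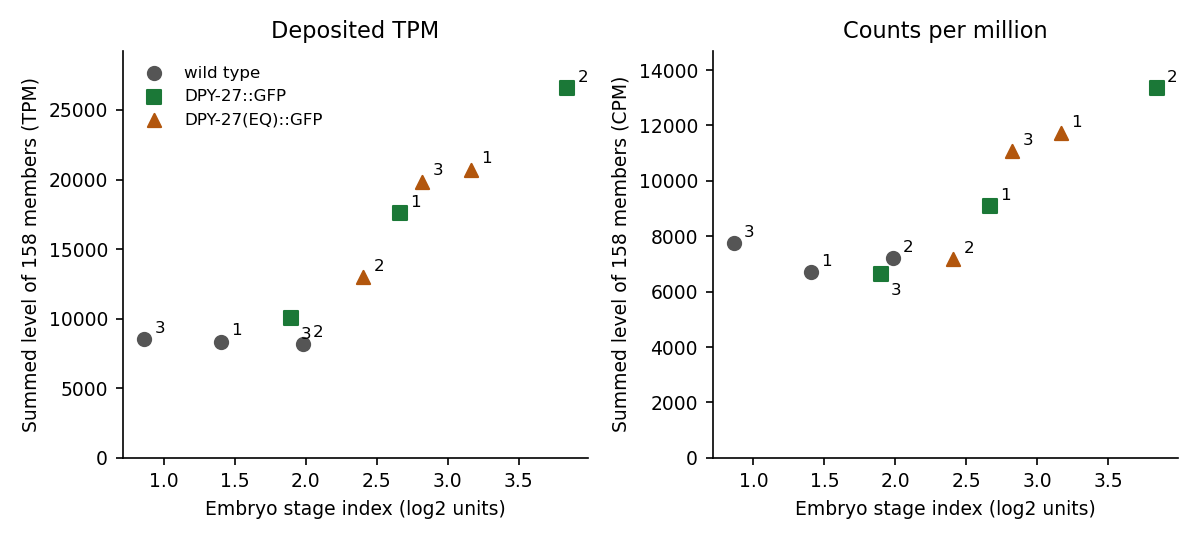
Sum over the 158 members in each library, in deposited TPM (left) and in CPM (right), against the embryo stage index in log2 units; points are libraries, labelled with their replicate number, with circles for wild type, squares for DPY-27::GFP and triangles for DPY-27(EQ)::GFP. The transgenic libraries climb from 10059 to 26598 TPM along the index, and the wild-type libraries stay between 8213 and 8548 TPM.

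The stage pattern of single members was fitted on counts with edgeR's quasi-likelihood test, as the slope of log2 level on the stage index with strain in the model. The test covered 12643 genes, among them 97 members, and all 14 expressed members that it left out failed its filter on low counts. Of the 97 members, 53 rose with the index and 0 fell at an adjusted p under 0.05, where 13.9% of all genes tested rose and 16.9% fell. The median slope was 0.43 log2 per index unit in members and 0.00 in all genes. Called slopes ran from 0.31 to 2.05. Of the 23 members with a mean TPM of 100 or more 19 rose, of 29 tested at 10 to 100 TPM 25 rose, and of 39 tested at 1 to 10 TPM 9 rose. No member entered the index, whose own lists gave 13 of 17 late markers that rose and 20 of 23 tested maternal markers that fell, by construction.

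Col-39 had the smallest adjusted p for the slope. Its CPM was 17.4, 21.8 and 12.2 in wild type, 30.5, 141 and 22.9 in the DPY strain and 80.8, 32.3 and 43.4 in the EQ strain. The library with the highest index was highest and the one with the lowest index was lowest. Its slope was 1.32 ± 0.13 log2 per index unit (the SE, as for all slopes and fold changes below), with an adjusted p of 4.6e-05 by edgeR. Col-147 had the steepest called slope, 2.05 ± 0.31 (adjusted p 0.00044), on CPM of 0.984, 1.16 and 0.663 in wild type, 2.28, 30.1 and 2.46 in the DPY strain and 12.5, 3.24 and 2.73 in the EQ strain. In col-147 the library labelled DPY replicate 2 and EQ replicate 1 stood far above the other 7 libraries.

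Other members with small adjusted p rose less or from lower levels. Col-160 was at 7.97, 7.22 and 3.34 TPM in wild type, 20.1, 134 and 12.7 in the DPY strain and 56.0, 24.1 and 21.3 in the EQ strain, with a slope of 1.68 ± 0.20 (edgeR adjusted p 0.00012). Col-169, col-167 and col-108 had slopes of 0.93 ± 0.13, 0.79 ± 0.13 and 1.76 ± 0.26, and col-108 rested on only 4 to 53 counts. Among the most abundant members, col-107 rose by 0.72 ± 0.15, col-125 by 0.70 ± 0.17, col-144 by 0.66 ± 0.13, col-10 by 0.57 ± 0.13, col-65 by 0.41 ± 0.12, col-104 by 0.42 ± 0.13, col-48 by 0.40 ± 0.14 and col-14 by 0.39 ± 0.14. Col-3 and col-117 rose by 0.79 ± 0.22 and 1.12 ± 0.27, on the uncertain counts described above.

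The slope calls rested on the library with the highest index. Without that library, labelled DPY replicate 2, the slope of 1 member passed, col-39 at 0.96 (adjusted p 0.022), where 0.898% of genes rose, and the median slope of members was then 0.35. Without DPY replicate 3 the count was 23, where 6.42% of genes rose. Within the 6 transgenic libraries alone 54 of 84 members tested rose and 0 fell, where 1575 of 12137 genes rose. Without the members of high TPM against counts, 33 of 76 rose.

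The 2 libraries of the same strain at the ends of the transgenic index range were also set side by side. The library labelled DPY replicate 2 had 2 or more times the CPM of replicate 3 in 59 of 97 members, where this held for 14.5% of all genes tested, and the reverse held in 7, where it held for 6.79%. Of the 97 members, 59 had their highest CPM of the 9 libraries in the one labelled DPY replicate 2, where 22.1% of genes did. The ratio of these libraries was 12.3 in col-147, 9.99 in col-160, 6.18 in col-39, 3.30 in col-107 and 1.49 in col-74.

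**Figure D3:**
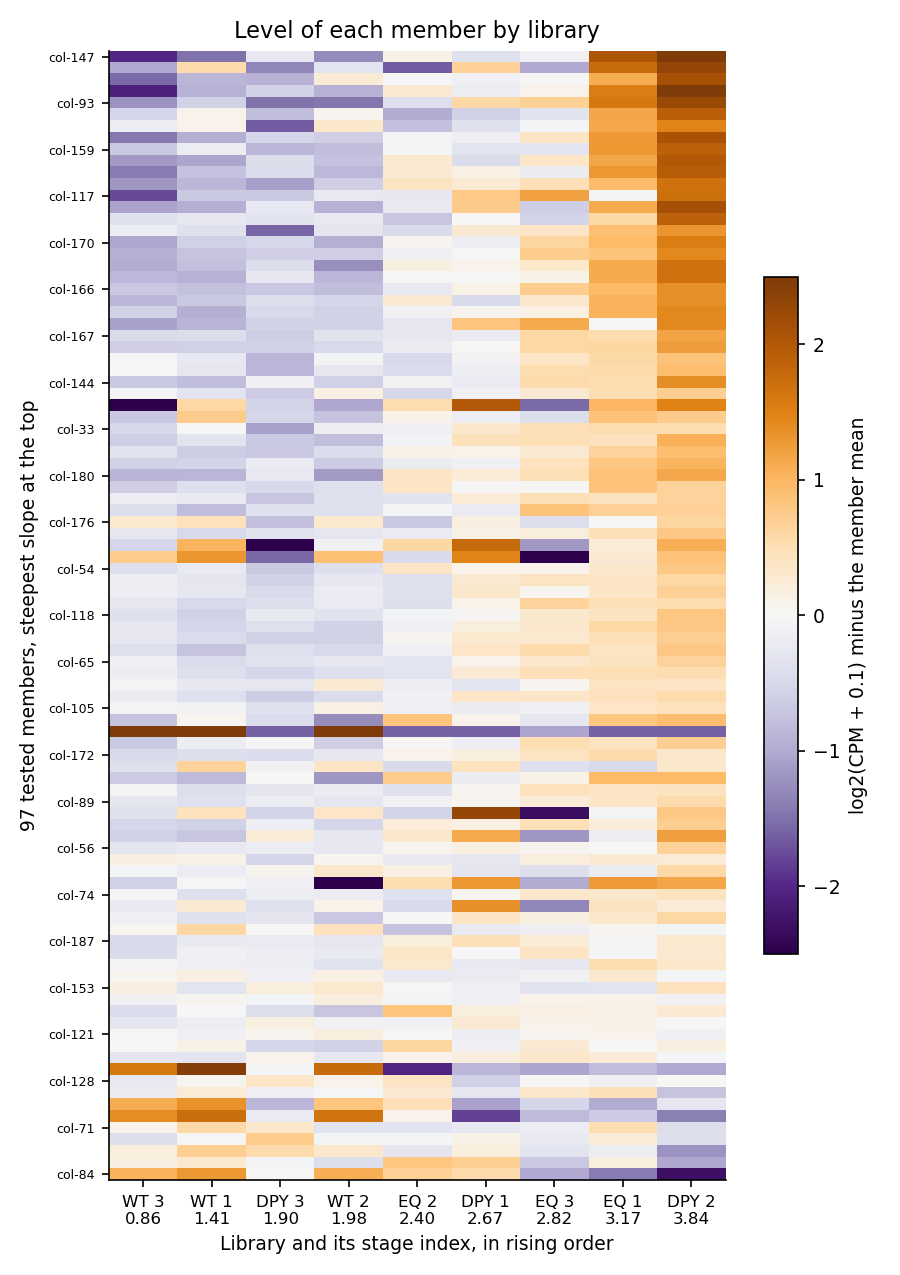
Level of each of the 97 tested members (rows, steepest slope at the top, some named) in the 9 libraries (columns, in order of the stage index printed under them), as log2(CPM + 0.1) minus the member's mean; orange is above and purple below it. Most rows turn orange towards DPY-27(EQ)::GFP replicate 1 and DPY-27::GFP replicate 2, and the lowest rows do not.

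Some abundant members did not pass for the slope. Of 52 tested members with a mean TPM of 10 or more, these were 8, namely col-74, col-165, col-121, col-76, col-99, col-115, col-111 and col-157. Col-121 was at 253, 311 and 270 CPM in wild type, 244, 253 and 287 in the DPY strain and 290, 279 and 284 in the EQ strain, and the strains overlapped. Its slope was -0.0060 with a 95% interval from -0.22 to 0.21. Col-76 was at 298, 331 and 274 CPM in wild type, 263, 271 and 278 in the DPY strain and 310, 278 and 312 in the EQ strain, with a slope of 0.07 (-0.14 to 0.27). Col-99, a membrane-anchored collagen and not a cuticle component of the usual kind, was at 116, 120 and 105 CPM, 157, 127 and 144 CPM, and 140, 121 and 137 CPM in the 3 strains in that order, with a slope of -0.0012 (-0.21 to 0.21). All 6 transgenic libraries were above wild type in col-99, but its log2 fold change of 0.32 ± 0.13 in the DPY strain did not pass (edgeR adjusted p 0.12). For col-74 and col-165 the slopes were 0.25 (-0.07 to 0.57) and 0.31 (-0.02 to 0.65), so a rise of the size found for col-65 lies inside their intervals.

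**Figure D4:**
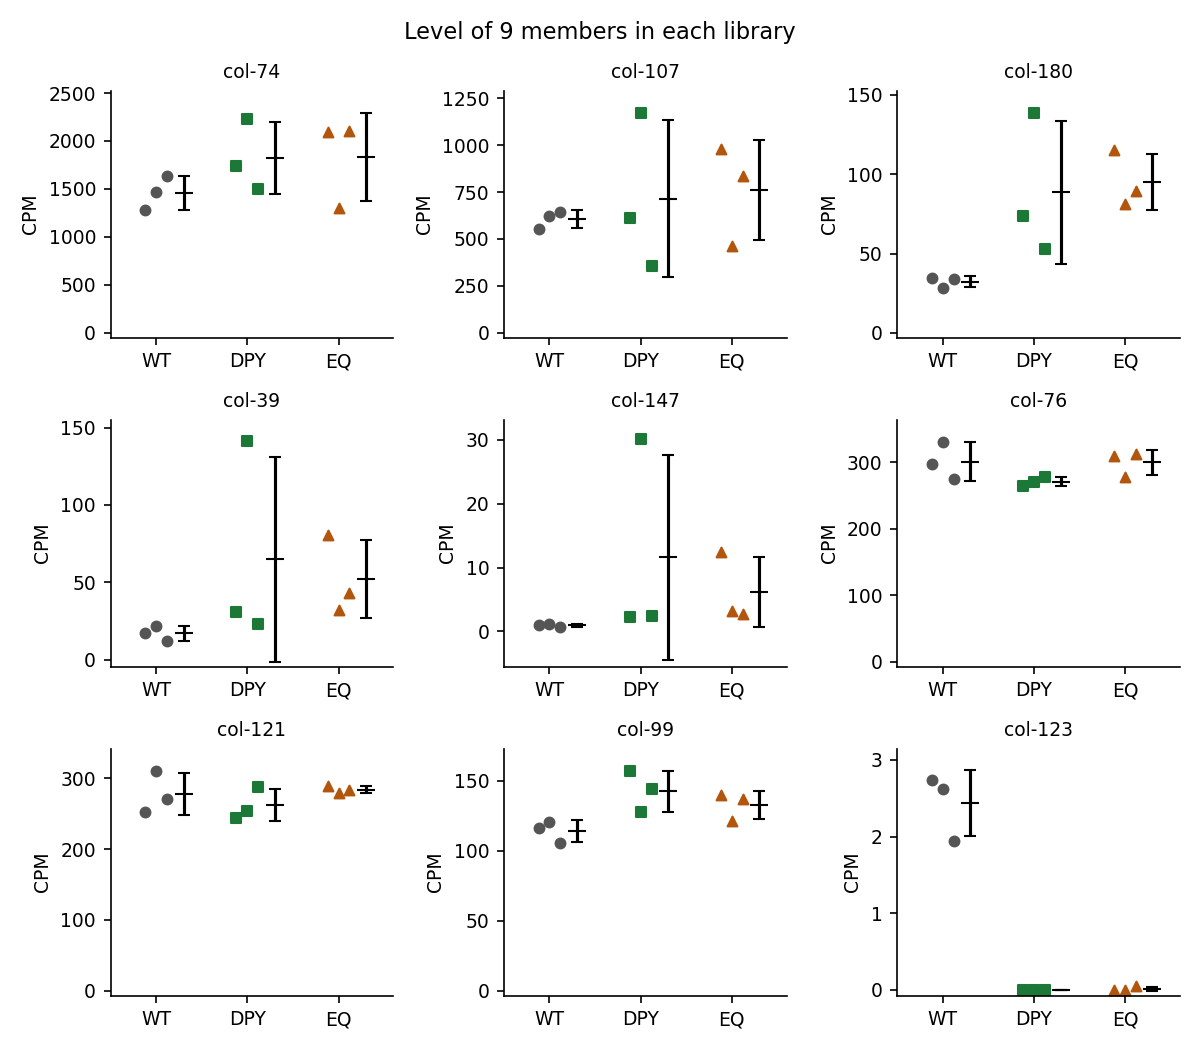
CPM of 9 members in each library by strain (WT wild type, DPY DPY-27::GFP, EQ DPY-27(EQ)::GFP; replicates 1 to 3 from left to right), with the mean and SD (n = 3) beside the points. Col-180, col-39 and col-147 are higher in all 6 transgenic libraries than in wild type. Col-39 and col-147 are highest in DPY-27::GFP replicate 2 and then DPY-27(EQ)::GFP replicate 1. Col-76 and col-121 overlap between the strains, and col-99 is slightly higher in the 6 transgenic libraries. Col-123 has counts in wild type and close to none elsewhere.

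Each transgenic strain was then compared with wild type, to learn whether an added copy of DPY-27, intact or mutant, goes with other collagen levels. In the DPY strain 13 of 97 members were higher and 4 lower at an edgeR adjusted p under 0.05, where 3.42% of all genes were higher and 7.45% lower. The median log2 fold change was 0.57 in members and -0.01 in all genes, and 77 members were above 0. In all 3 DPY libraries 25 members exceeded every wild-type library in CPM, where 10.9% of genes did. Same-numbered libraries of these 2 strains deviate together, at correlations of 0.10, 0.42 and 0.45. A block of replicate numbers was fitted on all 9 libraries, so it also tied the EQ libraries by number. Their correlations were 0.02, -0.26 and 0.01 with wild type and -0.25, -0.48 and -0.13 with the DPY strain. With this block 4 members were higher and 4 lower in the DPY strain, where 1.99% and 5.96% of genes were. The higher ones were then col-180, col-42, col-181 and col-140, of which col-140 did not pass without the block, and the lower ones were the same 4. Col-140 is named because it completes the count. It had 18, 3 and 0 counts in wild type, 18, 15 and 2 in the DPY strain and 8, 7 and 2 in the EQ strain. It entered the fit through transgenic libraries, where it is high, so its call is no support for a difference.

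Col-180, on the X chromosome, had the smallest adjusted p among the higher members of this comparison. It was at 34.6, 28.6 and 33.9 CPM in wild type, 73.8, 139 and 52.8 in the DPY strain and 115, 81.3 and 89.2 in the EQ strain, and no transgenic library overlapped wild type. The log2 fold change was 1.45 ± 0.29 (SE, edgeR adjusted p 0.010) in the DPY strain and 1.55 ± 0.29 (0.0085) in the EQ strain. Col-42 was at 3.25, 3.29 and 2.98 CPM in wild type and 10.7, 27.9 and 5.35 in the DPY strain, which is 2.22 ± 0.55 higher on the log2 scale (adjusted p 0.027). In the EQ strain col-42 was at 13.9, 5.44 and 4.13 CPM and did not pass.

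The remaining higher members of the DPY strain had log2 fold changes from 0.86 to 3.67. Col-147 reached 3.67 ± 0.96, col-91 had 1.77 ± 0.46, col-12 had 1.65 ± 0.46, col-3 had 1.65 ± 0.46, col-181 had 1.55 ± 0.43 and col-156 had 1.25 ± 0.33. Col-91 lies wholly over ncr-2 on the other strand. In wild type col-181 had 18 counts in each library and col-147 had 23, 19 and 14. With too few wild-type libraries above the filter's depth-scaled limit, these members entered the fit through transgenic libraries, where they are high. Their calls in this comparison are therefore no support for a difference. Col-160, col-144, col-177, col-146 and col-113 also passed, and col-113 is named here only because it completes the count. Of the 13 higher members, 10 were also called for the slope on the stage index, on which 2 of 3 DPY libraries lay above all wild-type libraries. Both calls use the same libraries, the one labelled DPY replicate 2 among them. The share of all genes called in both was not counted.

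In the EQ strain 4 members were higher and 3 lower, where 1.82% of genes were higher and 5.08% lower, with a median log2 fold change of 0.53 in members and -0.03 in all genes. The higher members were col-180, col-156, col-177 and col-172, of which 3 were higher in the DPY strain too. Both comparisons use the same wild-type libraries. Col-156 was at 3.85, 2.98 and 4.35 CPM in wild type, 6.01, 13.6 and 6.94 in the DPY strain and 13.5, 11.7 and 7.53 in the EQ strain, and was 1.53 ± 0.33 higher on the log2 scale in the last (edgeR adjusted p 0.020). Col-177 was at 4.23, 4.38 and 4.40 CPM in wild type and 7.50, 7.53 and 8.92 in the EQ strain, which is 0.89 ± 0.24 higher on the log2 scale (0.048). Col-172 had 0.74 ± 0.20 (0.049). In all 3 EQ libraries 45 members exceeded every wild-type library, where 19.3% of genes did. In all 6 transgenic libraries together 24 members did, where 8.47% of genes did.

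The stage mix moved with these comparisons. With the stage index as a covariate 0 members were higher and 4 lower in the DPY strain (3.55% and 5.75% of genes), and 0 and 3 in the EQ strain (1.04% and 3.01%), with median log2 fold changes of -0.13 and -0.09. Under that covariate col-180 had log2 fold changes of 0.60 (adjusted p 0.15) and 0.79 (0.089), and col-147 turned to -0.073 in the DPY strain. Leaving out 1 library also moved the counts. In the DPY strain 1 member was higher without wild-type replicate 1 (0.393% of genes), 1 without replicate 2 (0.922%) and 0 without replicate 3 (0.179%). Leaving out DPY replicates 1, 2 and 3 gave 3, 2 and 48 (0.497%, 2.83% and 11.1% of genes), and leaving out EQ replicates 1, 2 and 3 gave 9, 4 and 7 (2.07%, 2.2% and 1.74%). In the EQ strain the counts were 1, 1 and 0 without wild-type replicates 1, 2 and 3 (0.204%, 0.515% and 0.14% of genes), 2, 34 and 29 without DPY replicates 1, 2 and 3 (1.05%, 8.06% and 5.79%), and 1, 1 and 2 without EQ replicates 1, 2 and 3 (0.245%, 0.72% and 0.21%). The share over all genes moved too, but not always in step with the members' count. Without DPY replicate 2, the members higher in the DPY strain went from 13 to 2. The share of all genes went from 3.42% to 2.83%. When the prefix of the library names entered the model, 0 members passed in the DPY strain and 1, lower, in the EQ strain, where 0.308% and 0.957% of all genes passed in either direction. This term rests on EQ replicate 3 alone, and with so few calls over all genes the loss says nothing particular to the members. On log2(TPM + 1) with limma 39 members were higher and 1 lower in each strain, where 11.9% and 6.38% of genes were higher.

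**Figure D5:**
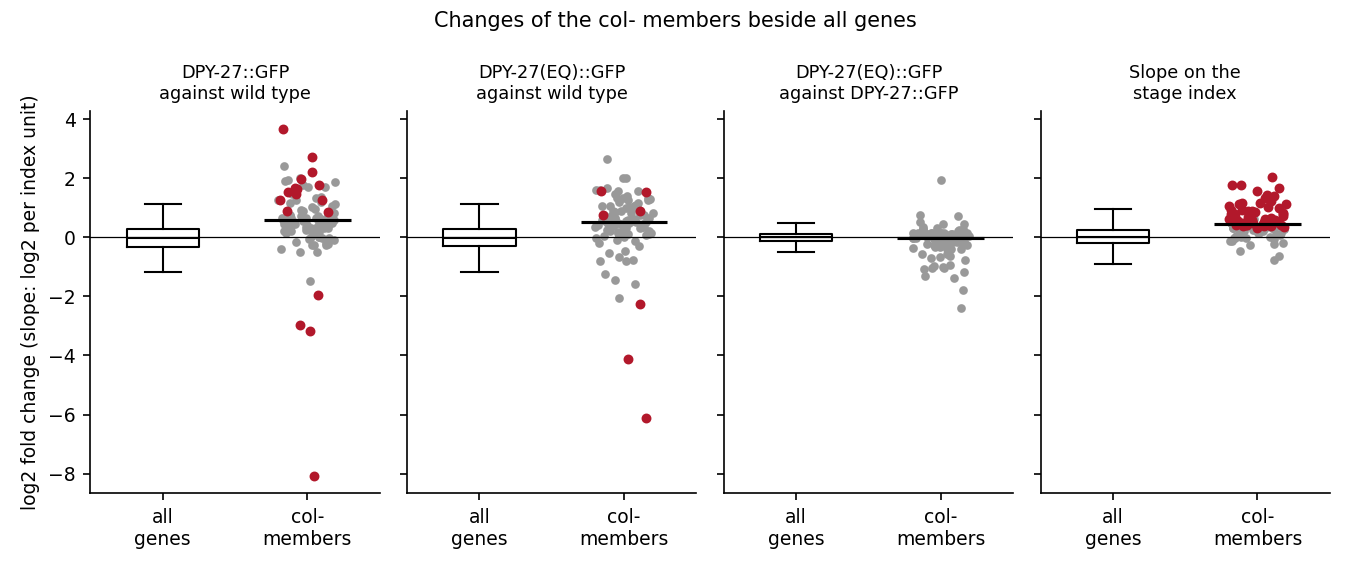
Log2 fold changes of the 97 tested members (points, red where the adjusted p is under 0.05, line at their median) beside a box of all 12643 genes tested (median, quartiles, whiskers to 1.5 times the quartile range, outliers not drawn) in the 3 strain comparisons, and slopes on the stage index in log2 per index unit at the right. The members' medians are 0.57 and 0.53 against wild type, -0.01 between the transgenic strains and 0.43 for the slope.

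The 4 members that were lower all had few reads. Of these, col-123, col-47 and col-138 reached 10 counts in no transgenic library. They entered the fit through the wild-type libraries alone, where they are high. Their fold changes and adjusted p are therefore no support for a difference. Col-123 had 64, 43 and 41 counts in wild type, 0 in each DPY library and 0, 0 and 1 in the EQ strain. Against a floor of 3 counts over the DPY libraries it was at least 19.7-fold lower. Its deposited TPM was no higher than 0.672 in any library, and the whole of it lies over catp-6, which is on the other strand. The libraries were stranded (cDNA made with dUTP), but whether the counting used strand is not stated, so it is not known whether reads of a member and of a gene across from it were separated, which touches 26 expressed members, among them col-74 (over gtap-1), col-107 (C34H4.5), col-14 (C46A5.4), col-48 (mek-2) and col-39 (dph-2). Col-47 had 58, 39 and 41 counts in wild type, 1, 2 and 4 in the DPY strain and 3, 7 and 7 in the EQ strain, with log2 fold changes of -2.97 ± 0.51 (edgeR adjusted p 0.0044) and -2.27 ± 0.43 (0.010). In deposited TPM col-47 was not separated, with 0.299 to 0.830 in wild type and 0.160 to 0.900 in the transgenic libraries, and it overlaps Y18H1A.9 on the other strand by 281 bases. Col-138 had 49, 21 and 24 counts in wild type and 0 to 2 in every transgenic library, with log2 fold changes of -3.17 ± 0.60 (0.0086) and -4.12 ± 0.62 (0.0023). Col-38 had 55, 27 and 42 counts in wild type, 3, 7 and 3 in the DPY strain and 3, 12 and 12 in the EQ strain. It passed in the DPY strain at -1.95 ± 0.46 (0.022). Since it reached 10 counts in no DPY library, it too entered the fit only with the wild-type libraries, where it is high. Its call is likewise no support for a difference. Wild-type libraries also had the larger share of reads in rows without a gene, which were not split by kind. The part of this share in these low counts was not tested. When 10 counts were required in every library none of the 4 entered the fit.

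Between the transgenic strains 0 of 97 members and 0 of 12643 genes (0.0%) passed by edgeR, DESeq2 or limma, with unadjusted p under 0.05 for 3 members and 116 genes. The median log2 fold change of members was -0.01. The interval of the difference was -0.50 to 0.51 for col-74, -0.59 to 0.79 for col-180 and -1.71 to 1.04 for col-39, so that for the members that vary most with the index a difference of more than 1 log2 unit remains within the error. Col-119 had the smallest unadjusted p of the members, with 48, 20 and 5 counts in the DPY strain and 8, 7 and 3 in the EQ strain.

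X-linked members were set beside autosomal ones because DPY-27 belongs to the condensin that lowers X transcription in hermaphrodites. Of 16 X-linked members tested 3 were higher and 0 lower in the DPY strain, and 3 and 0 in the EQ strain, with median log2 fold changes of 0.70 and 0.75. Of all 1939 X genes tested 74 were higher and 94 lower in the DPY strain, and 39 and 64 in the EQ strain. Of 81 autosomal members 10 were higher and 4 lower in the DPY strain and 1 and 3 in the EQ strain, with medians of 0.54 and 0.48. Of all 10696 autosomal genes 356 were higher and 846 lower in the DPY strain, and 189 and 577 in the EQ strain. The median of all X genes was 0.07 and 0.09, and that of all autosomal genes -0.02 and -0.05. Slopes on the stage index had medians of 0.48 in X-linked and 0.43 in autosomal members. The difference between X-linked and autosomal members was not tested.

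Neighbouring members did not always share a level. On the X chromosome col-167, col-168, col-169, col-170 and col-171 lie between positions 6323260 and 6335185 of the WS220 assembly on the same strand. The first 4 had mean levels of 396, 249, 184 and 160 TPM, while col-171 had 0.171 TPM and at most 10 counts. Summed over the libraries, the counts of the first 4 were 16034, 3190, 3525 and 782. Their order thus differed between TPM and counts, and the split of TPM among them is uncertain. On chromosome II col-79, col-39 and col-80 (10703558 to 10708227) lie over dph-2 on the other strand, with mean levels of 0.613, 52.4 and 1.59 TPM. Col-80 also rose with the index, by 1.78 ± 0.48 (edgeR adjusted p 0.012), from counts of 2 to 46, and col-79 was too low to be tested. In the run of col-144, col-145 and col-10 on chromosome V (9159618 to 9165284), all 3 rose with the index, and TPM exceeded the counts by 7.34, 2.54 and 2.81 times. Col-12 and col-13 (chromosome V, 10420866 to 10425069) rose by 0.89 ± 0.17 and 1.14 ± 0.21. Col-104 rose by 0.42 ± 0.13 and its neighbour col-105 by 0.39 ± 0.13 at a mean of 11.1 TPM, and col-159 and col-160 rose by 1.24 ± 0.30 and 1.68 ± 0.20. The facing genes col-146 and col-147 (chromosome V, 9629918 to 9633313) had ratios of DPY replicate 2 to replicate 3 of 5.34 and 12.3 in CPM.

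Among 13 members of a short fixed list, 8 were expressed and 5 were not. Col-19, a marker of the adult cuticle, had 14, 0 and 0 counts in wild type, 12, 13 and 2 in the DPY strain and 3, 6 and 3 in the EQ strain. The vitellogenins, which the adult intestine makes, summed to 0.636 to 2.83 TPM in wild type and 2.57 to 10.5 TPM in the transgenic libraries, and whether adult RNA adds to the col-19 counts was not tested. Col-2, known from the dauer larva, had 0 to 11 counts. Col-7 had 0 to 2, col-40 had 0 to 15 and col-17 had 1 to 10, and col-36 had none. Of the rest, col-10 had 1140 to 5401 counts, col-14 had 1910 to 11463, col-99 had 994 to 2853, col-12 had 98 to 547, col-13 had 7 to 76 and col-119 had 3 to 48. Col-10 and col-14 were among the 12 most abundant members, and col-34 was at 40.2, 45.2 and 43.0 TPM in wild type, 88.8, 108 and 51.2 in the DPY strain and 97.6, 57.4 and 115 in the EQ strain, with a slope of 0.44 ± 0.13 (edgeR adjusted p 0.023). Of the 14 members fixed for this description 13 were in the table, col-6 being the other one.

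Related gene groups were described from lists. Over all genes tested 3.42% were higher and 7.45% lower in the DPY strain, and 1.82% and 5.08% in the EQ strain. With the index 13.9% rose and 16.9% fell. The lists are short, and their counts of called genes are not read as results about the groups. The cuticle collagens named for body shape (dpy-, sqt-, rol-, bli- and lon- genes; 19 found, 14 tested) summed to 14632 to 17149 TPM in wild type and to 14972 to 18644 TPM in the transgenic libraries, with overlap between the strains. In this group 0 were higher and 2 lower in the DPY strain (dpy-3 at -0.92 ± 0.18 and sqt-3 at -0.75 ± 0.21), 0 and 2 in the EQ strain (dpy-3 at -0.65 ± 0.18 and dpy-8 at -1.43 ± 0.39), and 1, dpy-4, rose with the index, by 1.14 ± 0.31. Of 15 tested collagen processing genes 1 was higher in the DPY strain, the cuticle peroxidase gene mlt-7, at 1.09 ± 0.27 (edgeR adjusted p 0.026), and 2 rose with the index, mlt-7 by 0.53 ± 0.10 and the prolyl hydroxylase gene phy-2 by 0.21 ± 0.07. Of 10 epidermal regulators the Grainyhead gene grh-1 was higher in both transgenic strains, by 0.73 ± 0.17 and 0.78, and elt-1 and egl-18 fell with the index, by 0.24 and 0.25. The basement membrane collagen gene cle-1 was higher in the DPY strain by 0.59 ± 0.17, while emb-9 (0.42 ± 0.16) and let-2 (0.36 ± 0.16) did not pass. Heat shock genes summed to 783 to 1424 TPM in wild type and 673 to 1378 TPM in the transgenic libraries, without separation.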

How the data were processed

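The authors deposited raw gene counts and a TPM table. The tools named in the submitters' processing notes are CASAVA 1.8, Cufflinks 2.2.0, HTSeq 0.6.1p1 and DESeq2; the methods give WS220 as the genome. The tool behind the TPM and the strand setting of the counts are not given in the sources used here. Deposited columns of the authors' own comparisons (fold changes and p-values) were not used; only their gene identifiers were. Coordinates are from WS220, and strands and exonic lengths from WBcel235.

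Counts of all 9 libraries were fitted in edgeR 4.0.16 (filterByExpr, TMM, quasi-likelihood F test, two-sided, Benjamini-Hochberg over 12643 genes, adjusted p under 0.05), with strain, or strain and stage index, as terms. Standard errors come from the fold change and F; 95% intervals use them with the design's residual degrees of freedom. DESeq2 1.42.0 and limma 3.58.1 on log2(TPM + 1) and log2(TPM + 0.1) were alternatives. On simulated counts of 12643 genes, 200 genes drawn from above the median CPM were changed by 2 log2 units. For DPY-27::GFP against wild type 100% of them were recovered, and 7 unchanged genes were called. This does not bear on members at low counts or on smaller changes. Deviations of same-numbered libraries correlated at 0.10, 0.42 and 0.45 between DPY-27::GFP and wild type; this pairing is read from the data, not the labels. Members and lists were chosen with earlier results of these data known. Named are the 12 most abundant members, up to 8 called per direction against wild type, 6 per direction for the slope, a fixed list and neighbours of these.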

Additional observations from a re-analysis of the deposited data

How the results depend on the processing

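The counts of members called (higher and lower together) moved with many choices. The share of all genes called stands in brackets. For DPY-27::GFP against wild type the count was 17 (10.9%), and it was 28 with DESeq2 (17.3%), 31 without the filter (7.16%), 8 with 10 counts in every library (10.3%), 9 with only the 2 strains (5.21%), 8 with the replicate block (7.96%), 0 with the name prefix (0.308%), 4 with the stage index (9.3%), 40 and 42 on TPM with pseudocounts of 1 and 0.1 (15.9% and, at 0.1, 2034 of 12643 genes), 5 on thinned counts (8.32%), 3 at an adjusted p under 0.01 (2.6%), and 4 to 54 leaving out 1 library (2.33% to 23.5%). For DPY-27(EQ)::GFP it was 7 (6.9%), and in the same order 22 (13.6%), 21 (5.5%), 2 (5.41%), 50 (22.5%), 5 (5.35%), 1 (0.957%), 3 (4.05%), 40 and 40 (9.18% and 9.74%), 3 (5.06%), 3 (1.95%) and 3 to 41 (1.88% to 17.3%), and 4 without members overlapped on the other strand. The numbers do not pair those libraries (correlations of 0.02, -0.26 and 0.01), and each of the 3 libraries correlated better with another number. Between the transgenic strains the count stayed 0 in every setting run, the replicate block included. For the slope it was 53 (30.8%), and 35 with maternal markers alone (21.7%), 1 without the 2 libraries farthest from the median index (0.72%), 33 without members of high TPM against counts (a setting chosen after seeing the data), 47 with the replicate block (2148 of 12643 genes) and 1 to 56 leaving out 1 library (3.57% to 31.1%). The count of expressed members was 111, 69 with 10 counts in every library (11105 of 20389 genes), and 97 to 111 leaving out 1 library. The ratio of summed levels in DPY-27(EQ)::GFP was 2.13 in TPM, 1.38 in CPM, and 1.96 to 2.42 leaving out 1 library; in DPY-27::GFP it was 2.16, 1.34, and 1.65 to 2.64. Col-147 reversed to -0.073 in DPY-27::GFP with the stage index, and col-47 to 0.075 and 0.20 in DPY-27(EQ)::GFP on TPM with pseudocounts of 1 and 0.1; the cause was not tested. Depth limits what can be said of members under 10 counts. Of 50 members in runs 24 had a deposited TPM of 1.5 or more times that rebuilt from counts, and the part of read assignment in this was not tested. The exclusion of members by protein identity was not run.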
